A study of Mus musculus with 4 samples.

Results

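The genes described here were 10 genes by which microglia, the resident immune cells of the brain, are commonly recognised: Aif1, C1qa, C1qb, C1qc, Csf1r, Cx3cr1, P2ry12, Tmem119, Trem2 and Sall1. They were taken by name, out of 21938 protein-coding genes of the GENCODE mouse M21 annotation, by a choice made with earlier results of these data known. Histone H3 trimethylated at lysine 4 (H3K4me3) was measured by chromatin immunoprecipitation and sequencing in hippocampal tissue of male B6CASTF1/J mice, an F1 hybrid strain, aged 2 months. There were 4 libraries, 2 technical replicates of pool D (biological replicate 1) and 2 of pool C (biological replicate 2). Each pool joined 7 tissue samples, all of the same strain, sex and age, and no treatment is labelled. The source label reads layer of hippocampus and names no particular layer. Peaks were called on each pool, on both pools together, and as a replicated list, so that each pool gave 1 peak list and its technical replicates could not be compared. The 2 pools are the only replication, no comparison between them could be tested, and the sequencing depth behind the lists is unknown.

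Microglia enter the brain from the yolk sac early in development, renew themselves there, and depend on signalling through the receptor encoded by Csf1r. They survey the tissue with motile processes, clear debris and take part in the removal of synapses, in which complement protein C1q acts as a tag. H3K4me3 is placed at the starts of active and poised genes, most readily where CpG dinucleotides are dense, and a broad H3K4me3 domain is often found at genes that define a cell's identity. In a bulk tissue such as this one, fewer cells of a type and less of the mark per cell cannot be told apart.

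A gene was called marked when a peak came within 1 kb of any of its transcription start sites. In each of the 4 lists 12 of 12 neuron and hippocampus markers were marked, among them Prox1, Zbtb20 and Camk2a. Markers of other tissues, such as Actc1 and Ahsg, were marked in 0 of 12 cases in any list. The share of all protein-coding genes was 65.5% in the replicated list. Both marker lists were chosen with earlier results of these data known, so they cannot check the tissue label. They also differ in CpG content, with 4 of 12 and 10 of 12 genes in the low class defined further on. The 4 lists held between 24690 peaks (pool D) and 34193 peaks (pool C), with 27063 in the replicated list. A replicated peak was not always one present in both pools: 22793 of the 27063 (84.2%) overlapped a pool D peak and 26500 (97.9%) a pool C peak, while 26600 (98.3%) had the coordinates and signal value of a peak in the list called on both pools together. Pool C peaks covered 48 Mb against 35 Mb in pool D, and their median width was 940 bp against 1170 bp.

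By the CpG ratio given further on, 9 of the 10 genes were CpG-poor and Sall1 was CpG-rich. Sequences of some of them are printed here. The RefSeq promoter table for GRCm38.p6, which runs from 250 bases before to 50 after a start site, held 7 of the 10 genes. C1qa, Csf1r and Tmem119 had no entry. Each sequence is 5′ to 3′ on the gene's own strand, with every CG dinucleotide in capitals. C1qb (chr4:136886151-136886450, minus strand) was the gene with no promoter peak in any list, and C1qc (chr4:136892865-136893164, minus strand) is its neighbour with a peak in 3 lists. P2ry12 (chr3:59262936-59263235, minus strand) had the strongest peak of the CpG-poor genes and Trem2 (chr17:48346151-48346450, plus strand) the weakest. Sall1 (chr8:89044113-89044412, minus strand) was the CpG-rich exception. Tmem119 is shown by its whole replicated peak (chr5:113800074-113800342, read on the minus strand), since that peak is only 269 bp wide.
C1qb: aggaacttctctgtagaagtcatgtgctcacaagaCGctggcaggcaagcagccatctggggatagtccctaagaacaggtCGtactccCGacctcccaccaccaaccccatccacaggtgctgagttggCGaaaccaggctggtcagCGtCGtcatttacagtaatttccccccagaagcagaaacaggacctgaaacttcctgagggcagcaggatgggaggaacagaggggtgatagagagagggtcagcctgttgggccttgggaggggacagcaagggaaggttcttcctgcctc
C1qc: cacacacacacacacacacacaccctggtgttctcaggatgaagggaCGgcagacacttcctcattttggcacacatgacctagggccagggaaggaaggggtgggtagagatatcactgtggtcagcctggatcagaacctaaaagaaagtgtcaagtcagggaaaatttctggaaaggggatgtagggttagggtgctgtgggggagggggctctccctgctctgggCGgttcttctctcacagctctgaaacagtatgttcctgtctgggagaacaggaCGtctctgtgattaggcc
P2ry12: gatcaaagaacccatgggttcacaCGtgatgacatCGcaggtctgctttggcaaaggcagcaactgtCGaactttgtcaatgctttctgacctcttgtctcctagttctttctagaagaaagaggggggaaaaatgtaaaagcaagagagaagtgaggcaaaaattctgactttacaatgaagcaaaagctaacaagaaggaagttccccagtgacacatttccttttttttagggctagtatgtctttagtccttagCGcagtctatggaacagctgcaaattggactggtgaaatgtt
Trem2: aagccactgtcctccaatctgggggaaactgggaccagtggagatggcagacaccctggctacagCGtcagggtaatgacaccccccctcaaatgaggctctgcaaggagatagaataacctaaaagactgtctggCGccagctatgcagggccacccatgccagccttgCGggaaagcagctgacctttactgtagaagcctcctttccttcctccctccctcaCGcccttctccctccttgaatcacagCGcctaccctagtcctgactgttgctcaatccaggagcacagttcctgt
Sall1: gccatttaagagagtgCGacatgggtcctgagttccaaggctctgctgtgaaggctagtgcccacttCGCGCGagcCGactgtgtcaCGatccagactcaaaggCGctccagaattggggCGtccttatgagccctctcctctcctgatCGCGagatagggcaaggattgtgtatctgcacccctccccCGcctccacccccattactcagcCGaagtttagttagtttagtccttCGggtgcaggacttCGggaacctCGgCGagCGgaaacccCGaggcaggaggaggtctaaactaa
Tmem119: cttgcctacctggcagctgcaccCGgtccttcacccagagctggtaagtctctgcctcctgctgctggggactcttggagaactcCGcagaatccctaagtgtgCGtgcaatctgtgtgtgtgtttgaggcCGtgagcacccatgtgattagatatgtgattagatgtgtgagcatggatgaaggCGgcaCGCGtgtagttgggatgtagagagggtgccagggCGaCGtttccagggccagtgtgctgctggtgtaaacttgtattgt

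These windows of 300 bases held 6 CG dinucleotides at C1qb, 3 at C1qc, 4 at P2ry12 and 5 at Trem2. The remaining CpG-poor entries held 1 at Aif1 and 5 at Cx3cr1. The median of all 32851 promoters in the table was 7, so that each of these 6 genes lay below it. They ranked from the 14.1 percentile (Aif1) to the 47.9 percentile (C1qb) of these promoters, so that some lay close to the median. Sall1 had 3 entries, with 18, 27 and 39 CG dinucleotides, all above that median. The printed entry, with 18, ranked at the 71.9 percentile. The Tmem119 peak held 9 in its 269 bases, and it is not a promoter window of that table.

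Within the same windows the letters GAGGAA, the core of the site bound by PU.1, the factor that directs the myeloid lineage, were found on either strand in 4 of 7 genes (Aif1, C1qb, C1qc and Trem2) and in 28.3% of all promoters. The longer form GAGGAAGT, which contains GAGGAA, was found at C1qc alone of the 7 genes, on the strand opposite to the gene, and in 3.2% of all promoters. TGTGGT, the core of RUNX sites, was found at C1qc and Cx3cr1 and in 16.8% of all promoters. TATAAA, the TATA box, was found in 0 of 7 genes and in 13.6% of all promoters. A match shows only that the letters are present in this window.

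The 2 pools gave very different calls for these genes. In the pool C list 9 of 10 were marked, with C1qb the exception, against 66.9% of all protein-coding genes. In the pool D list only Sall1 was marked, 1 of 10 against 64.3% of all protein-coding genes. The replicated list marked 5 of 10 (C1qc, Csf1r, P2ry12, Tmem119 and Sall1) against 65.5% of all, and the list called jointly marked these 5 and Cx3cr1 against 66.3%. Of the 5 replicated calls, 4 (all but Sall1) thus had no pool D peak behind them. Aif1, C1qa and Trem2 were therefore marked in pool C alone of the 4 lists.

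Being marked in pool C and not in pool D was uncommon among genes at large. It held for 8 of the 10 microglia genes and for 2.68% of all protein-coding genes (588 genes). The opposite, marked in pool D and not in pool C, held for 0 of 10 and for 0.0228% of all (5 genes). These shares are over genes of any peak strength. Of 694 genes whose pool C promoter peaks were as weak as those of the CpG-poor microglia genes, 28.2% were marked in pool D. Pool C also had more peaks than pool D in all, and some markers of other cell types, given with the marker lists further on, were marked in pool C and not in pool D.

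**Figure D1:**
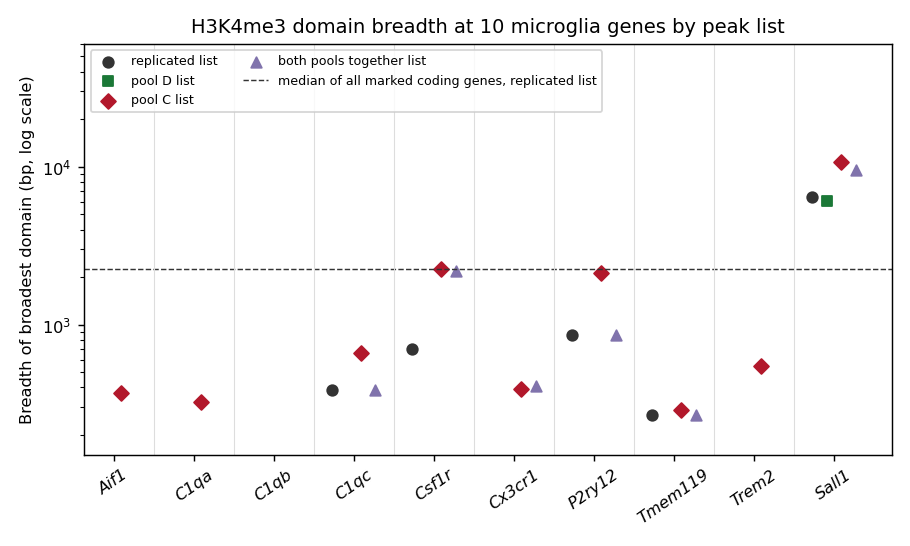
Width of the broadest promoter domain of each of the 10 genes (bp, log axis), with a gap where a list holds no domain. Points are from the replicated list, the pool D and pool C lists and the list called on both pools together. The dashed line is the median of all marked protein-coding genes in the replicated list. Sall1 lies between 6110 and 10763 bp in every list, while the other genes have no pool D point.

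Among the receptor genes, Csf1r encodes the receptor tyrosine kinase for the growth factors CSF1 and IL-34. Peaks within 1 kb of each other were joined into a domain, and the Csf1r domain was 695 bp wide in the replicated list (2 peaks) and 2263 bp wide in pool C (3 peaks). The list called on both pools together gave 2195 bp (4 peaks). Pool D had no peak there, so that the width over pools has no error estimate. The replicated domain (chr18:61105968-61106662) lay at an internal start site, 5497 bp downstream of the gene's 5′ end to the summit of its stronger peak, in an intron. The weaker of its 2 replicated peaks had a q value of 0.0419 in the deposited list, close to the conventional limit.

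P2ry12 encodes the ADP receptor that steers microglial processes towards sites of injury. Its promoter peak was 855 bp wide in the replicated list (chr3:59262037-59262891) and 979 bp wide in pool C. It covered 2 start sites in both lists, and pool D had no peak there. Pool C had a broader P2ry12 domain of 2133 bp, made of 2 weaker peaks near an internal start site, with summits 42977 and 43967 bp downstream of the gene's 5′ end, and no other list had a peak within 1 kb of that start site. The joint list held 1 peak of 336 bp inside the larger of the 2, with a −log10 q of 1.30, while the replicated and pool D lists held none over the domain.

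Cx3cr1 encodes the receptor for the neuronal chemokine fractalkine. Its peak was 390 bp wide in pool C (chr9:120067832-120068221) and 407 bp wide in the joint list of both pools, and the replicated and pool D lists had none. A start site of the gene Gm33858 lies within 1 kb of the same peak. Pool C held 3 more small peaks inside Cx3cr1, with widths of 252, 362 and 317 bp. Their summits lay 1854, 2515 and 2993 bp downstream of the Cx3cr1 start site nearest the first peak. Outside the windows of its start sites the long Cx3cr1 gene model held 7 peaks in pool C, 4 in pool D and 4 in the replicated list. Some of these peaks lay within 1 kb of a start site of another gene. Those near no gene's start site numbered 4 in pool C, 2 in pool D and 1 in the replicated list.

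Trem2 encodes a lipid-sensing receptor that signals through the adaptor encoded by Tyrobp. Its 1 peak was 548 bp wide, was in pool C alone (chr17:48346512-48347059) and had a q value of 0.0354. Tmem119 encodes a membrane protein that separates microglia from other macrophages. Its peak was 269 bp wide in the replicated list and 286 bp wide in pool C, with the same downstream edge. Pool C had another Tmem119 peak of 382 bp at 1854 bp downstream, outside the window.

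The genes of C1q, a protein built of 3 kinds of chain that starts the classical complement pathway, form a cluster of 18.7 kb on chromosome 4. Inside it the pool C list held 3 peaks, the replicated list 1, the joint list 1, and the pool D list 0. C1qc had 382 bp in the replicated list (chr4:136892211-136892592) and 664 bp in pool C. C1qa had 323 bp in pool C alone, from 704 bp downstream of its start site. C1qb was the gene just outside the window: its nearest pool C peak was 273 bp wide and began 1280 bp downstream of the start site. The 2 peaks on either side of the 1 kb limit were both weak, with signal values of 3.14 at C1qa and 2.65 near C1qb.

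Aif1 encodes IBA1, a calcium-binding protein that is the usual stain for microglia. Its 1 promoter peak was 369 bp wide and was in pool C alone (chr17:35172209-35172577). It lay at an internal start site, with its summit in a coding exon 3767 bp downstream of the gene's 5′ end.

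Sall1 encodes a zinc finger transcription factor that maintains the microglial state and that also acts in the development of other organs. It was the only member marked in both pools, with domains of 6110 bp (pool D) and 10763 bp (pool C), a mean of 8436.5 ± 3290 bp (SD, n = 2 pools). The replicated list gave 6453 bp (chr8:89039224-89045676). The pool C domain was 1.76 times as broad as that of pool D, with smaller peaks joined to it on both sides. The main peak of the pool C domain alone measured 6514 bp, and that of pool D 5378 bp.

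**Figure D2:**
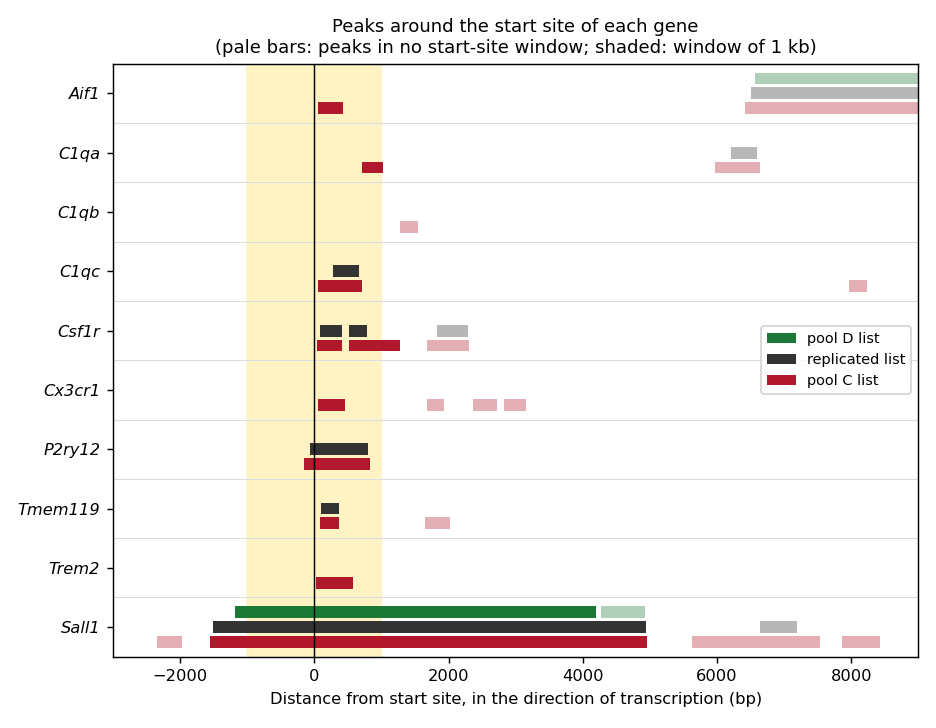
Peaks of the pool D, replicated and pool C lists around the start site nearest the strongest peak of each gene (for C1qb its only one), as distance in bp in the direction of transcription. Apart from P2ry12 and Sall1, the peaks in the shaded window begin downstream of the start site, and pool D has a peak in that window at Sall1 alone.

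Most of the microglia domains were narrow next to those of all marked protein-coding genes. Widths were not set beside those of CpG-poor genes or of genes with like peak strength. Over the 5 genes with a replicated domain the median was 695 bp, against 2234 bp over all 14369 marked protein-coding genes. Widths of 269 bp (Tmem119), 382 bp (C1qc) and 695 bp (Csf1r) were under the fifth percentile of all marked genes, 778 bp, while P2ry12 was above it at 855 bp. In pool C the median over the 9 marked genes was 548 bp, against 2400 bp over all. The pool C domains of Csf1r (2263 bp) and P2ry12 (2133 bp, at an internal start site) lay just below the median over all. Sall1 was broader than both medians in each list.

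The strength of each peak was read from the signal value, the enrichment that the authors deposited for it, compared only between peaks of the same list and never across lists. In pool C the strongest promoter peak had a signal value of 5.98 at P2ry12, 4.75 at Csf1r, 4.61 at Cx3cr1 and 4.43 at C1qc. It was 3.88 at Aif1, 3.51 at Tmem119, 3.14 at C1qa and 2.59 at Trem2. These 8 peaks ranked from the 2.0 percentile (Trem2) to the 40.9 percentile (P2ry12) of all pool C peaks. Sall1 stood apart at 19.29, the 65.9 percentile. The median over the 9 marked genes was 4.43, and over all marked protein-coding genes it was 27.9.

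In the replicated list the signal value was 15.59 at Sall1, 3.94 at P2ry12, 3.56 at Csf1r, 3.55 at C1qc and 3.12 at Tmem119, with a median of 3.56 against 22.5 over all marked genes. On the deposited −log10 q scale, P2ry12 stood at 7.51 and Sall1 at 65.96, and no other gene of the 10 reached 5 there.

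Peak strength was then set beside the pool D call. Protein-coding genes whose strongest pool C promoter peak lay between 2.59 and 5.98, the range of the 8 CpG-poor genes marked there, numbered 694. Of these, 28.2% were marked in pool D and 54.5% in the replicated list, against 0 of 8 and 4 of 8 microglia genes. The medians of the signal value were alike, 4.33 over the 694 genes and 4.15 over the 8. Of the 348 CpG-poor genes in that range, 85 (24.4%) were marked in pool D. This range was chosen after the values had been seen, and it includes the microglia genes.

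By steps of 1 signal unit, the share of genes marked in pool D was 2.22% of 45 genes from 2 to 3, the step that holds Trem2. It was 10.9% of 229 genes from 3 to 4, with Aif1, C1qa and Tmem119, and 30.3% of 244 genes from 4 to 5, with C1qc, Csf1r and Cx3cr1. From 5 to 6 it was 52.1% of 194 genes, where P2ry12 was not marked in pool D. From 6 to 7 it was 80% of 210 genes. Peak strength thus moved with the pool D call, and its part in the absence of the microglia genes was not tested.

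**Figure D3:**
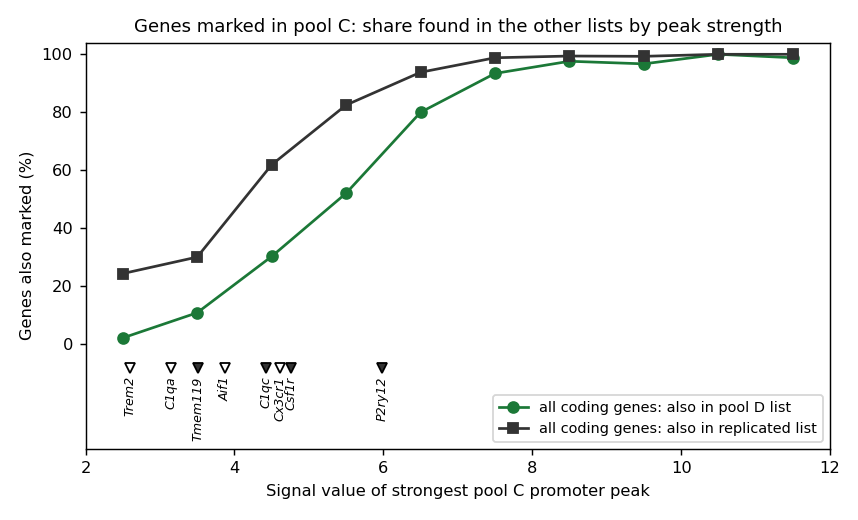
Share of protein-coding genes marked in the pool D and replicated lists (percent) against the signal value of their strongest pool C promoter peak, with the CpG-poor microglia genes placed at their own signal value (filled where marked in the replicated list). The share in pool D climbs from 2.22% at 2 to 3 to 80% at 6 to 7, and the 8 CpG-poor microglia genes sit in the rising part of the curve.

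The nearest pool D peak lay at very different distances and strengths. It lay 5793 bp from a start site of Aif1, at the promoter of Prrc2a, with a signal value at the 93.8 percentile of the pool D list. Near Tmem119 it lay 26261 bp away at Iscu and Sart3 (the 96.8 percentile), and near Trem2 61755 bp away at Nfya and Oard1 (the 95.9 percentile). It was 40421 bp away at Cx3cr1 (Slc25a38, the 71.7 percentile), 80582 bp at P2ry12 (Igsf10, the 68.5 percentile) and 49169 bp at C1qb (Ephb2, the 66.8 percentile), and C1qc, 55858 bp away, had the same nearest peak. The nearest peaks to Csf1r (34558 bp away, the 25.0 percentile) and C1qa (57517 bp, at Epha8, the 23.5 percentile) were weak. C1qa, C1qc, P2ry12 and Trem2 had 0 pool D peaks in the gene or within 50 kb of it.

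The summits of the microglia peaks lay downstream of the start site. In pool C this held for 9 of 9 marked genes and in the replicated list for 5 of 5, against 76% and 76.5% of all marked protein-coding genes. The pool C distances ran from 146 bp at Trem2 and 178 bp at P2ry12 to 807 bp at C1qa, 1042 bp at Csf1r and 1917 bp at Sall1, with a median of 336 bp against 133 bp over all marked genes. In the replicated list the median was 257 bp against 128 bp.

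Most of the microglia peaks also did not reach the start site itself. In pool C only P2ry12 and Sall1, 2 of 9, had a peak over a start site, against 95.8% of all marked protein-coding genes and 82.2% of the marked CpG-poor genes. At the other 7 the nearest peak edge lay from 23 bp (Trem2) to 704 bp (C1qa) downstream, and it was 46 bp at Csf1r, 49 bp at C1qc, 54 bp at Aif1, 62 bp at Cx3cr1 and 87 bp at Tmem119. Of the 694 genes in the signal range given above 61% had one, and of the 348 CpG-poor genes among them 50.6%, against 1 of the 8 microglia genes. This measure was added after the values had been seen.

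CpG content was counted over 500 bp on either side of each gene's 5′ end, as the ratio of observed CpG to that expected from base composition. The ratio was 0.158 at Aif1, 0.161 at C1qc, 0.166 at Trem2, 0.189 at Csf1r and 0.211 at Cx3cr1. It was 0.266 at C1qa, 0.282 at Tmem119, 0.286 at C1qb and 0.342 at P2ry12, so that these 9 genes fell in the low class, under 0.35. Sall1 was in the high class with 0.635 and 53 CpG. The median over the 10 genes was 0.238, against 0.552 over all protein-coding genes.

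CpG class went with the mark across the genome. In the replicated list 97.4% of the 10083 high-CpG genes were marked, 78.1% of the 3790 intermediate genes and 19.7% of the 8065 low-CpG genes, and 4 of the 9 low-CpG microglia genes were. In pool C 21.8% of low-CpG genes were marked, against 8 of 9 microglia genes. In pool D it was 18.1%, against 0 of 9. A mark in pool C and not in pool D was found in 3.79% of low-CpG, 4.83% of intermediate and 0.982% of high-CpG genes.

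**Figure D4:**
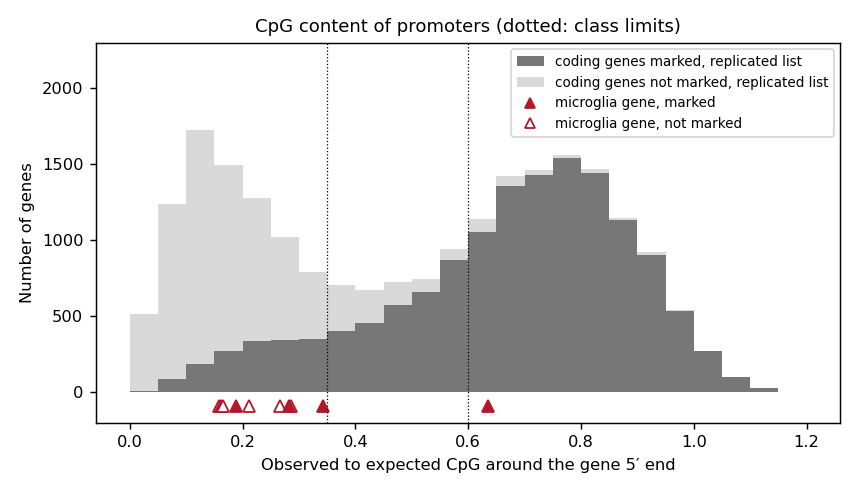
Distribution of the CpG observed to expected ratio over all protein-coding genes (number of genes per bin), split by the call in the replicated list, with triangles for the 10 microglia genes (filled where marked). The microglia genes other than Sall1 lie between 0.158 and 0.342, where most genes carry no mark.

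A further 25 genes with known microglial expression were read in the same way. The counts marked were 9 of 25 in the replicated list, 7 in the pool D list and 15 in the pool C list, and 8 were marked in pool C and not in pool D. For this and the lists that follow, the shares over all protein-coding genes were 65.5%, 64.3% and 66.9% in that order. Marked in pool C and not in pool D were 2.68% of all. Among the broadest was Rnase4 (4159 bp in the replicated list, 4039 bp for pool D and 4603 bp for pool C), whose domain is shared with Ang. Another was Olfml3 (1609, 1137 and 1764 bp), whose pool C domain is shared with Gm10964. Ctss, a lysosomal protease gene, had 245 bp in pool C and none in pool D, Laptm5 348 bp and Fcer1g 953 bp. Bin2 and Cd33 had no peak in any list.

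By their calls over the 4 lists, Aif1, C1qa and Trem2 were matched by 4 of these 25 genes (among them Ctss, Laptm5 and Ptprc) and by 0.72% of all protein-coding genes. The pattern of C1qc, Csf1r, P2ry12 and Tmem119, marked in all but pool D, was shared by Ly86 of the 25 and by 1.08% of all. That of Cx3cr1 was shared by 3 (Fcer1g, P2ry13 and Slc2a5) and 0.839% of all. C1qb, unmarked throughout, was like 9 of the 25 (Bin2, Cd33 and Fcrls among them) and 32.9% of all genes, and Sall1, marked throughout, was like 7 (Cd14, Cd53 and Cd68 among them) and 64.3%.

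Regulators of these genes formed a list of their own. It held 19 microglial transcription factors and genes of TGF-beta signalling, the pathway that maintains the microglial state. Among these, 18 were marked in the replicated list, 18 in the pool D list and 19 in the pool C list. The shares of all protein-coding genes were 65.5%, 64.3% and 66.9%. Only 3 of the 19 were low-CpG genes, and 2 of those 3 were marked in the replicated list. Across the genome, 97.4% of high-CpG genes were marked in that list. Mef2c (7392 bp in the replicated list), Bhlhe41 (6842 bp) and Cebpb (5025 bp) were broadest, and these factors are also made by other brain cells. The pool C domain of Cebpb is shared with Tmem189. Spi1, which encodes PU.1, was the exception, with a domain of 368 bp in pool C and none in pool D or the replicated list.

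The ligands and signalling genes of CSF1R and fractalkine were marked in 7 of 9 cases in the replicated list, 7 in the pool D list and 9 in the pool C list. Cx3cl1, the neuronal ligand of CX3CR1, had 4605 bp and Csf1, a ligand of CSF1R, 3333 bp in the replicated list, and both were also marked in pool D. Il34, the neuronal ligand of CSF1R, had 502 bp in pool C and Csf2rb, a cytokine receptor subunit gene, 496 bp, with neither marked in pool D. The ligand genes Cx3cl1 and Csf1 thus had wide domains in both pools. The ligand gene Il34 and the receptor genes Csf1r and Cx3cr1 were marked in pool C and not in pool D. CpG content differed in the same way, with ratios of 0.615 at Csf1 and 0.481 at Cx3cl1. It was 0.294 at Il34, 0.189 at Csf1r and 0.211 at Cx3cr1, all in the low class. The part of CpG content in these calls was not tested.

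Of 12 genes of the TREM2 pathway, 6 were marked in the replicated list, 6 in the pool D list and 8 in the pool C list. Tyrobp, the adaptor of TREM2, had 469 bp and Vav1 349 bp, both in pool C and not in pool D. Apoe, a TREM2 ligand made largely by astrocytes, had 4583 bp in the replicated list, and Adam10, which encodes the protease that sheds TREM2, 3277 bp. Hcst and Treml1 had no peak in any list.

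A list of 18 genes held complement genes and receptors other than C1q, and also C1q-like genes that do not encode complement components. Of the 18, 11 were marked in the replicated list, 10 in the pool D list and 12 in the pool C list. The shares of all protein-coding genes were 65.5%, 64.3% and 66.9%. The broadest were genes with roles in neurons, C1ql3 (7620 bp), Csmd1 (4228 bp) and C1ql2 (3791 bp). Itgb2, the beta chain of complement receptor CR3, had 207 bp in pool C and none in pool D, and Serping1, the C1 inhibitor gene, had 731 bp in pool C, 670 bp in the replicated list and none in pool D. C3 and C1s1 were among the 6 genes with no peak in any list. Of 10 purinergic receptors and nucleotide enzymes, 8 were marked in each of these 3 lists, and P2ry14 and Adora3 had no peak. The broadest was Entpd1 (3334 bp in the replicated list), a high-CpG gene that encodes the enzyme CD39. In a bulk tissue its domain cannot be assigned to a cell type.

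Markers of other cells that a hippocampal sample can hold were read in the same way. Of 14 markers of border macrophages and blood monocytes, 1 was marked in each list, Stab1 (1180 bp in the replicated list, 481 bp for pool D and 1469 bp for pool C), while the other 13, Cbr2 and Ccr2 among them, had no peak in the replicated or single-pool lists. Of 14 lymphocyte and neutrophil markers only Mpo was marked, with 254 bp in the replicated list and 902 bp in pool C. Of 12 vascular markers, 11 were marked in the replicated list, 9 in the pool D list and 12 in the pool C list, and Acta2, Cdh5 and Rgs5 were the 3 without a pool D mark. Of 12 astrocyte and oligodendrocyte markers, 12, 11 and 12 were marked, and Mog was the gene without one in pool D.

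Within the low-CpG class alone, where all microglia genes but Sall1 belong, the lists were read once more, beside all low-CpG genes, of which the pool D list marked 18.1% and the pool C list 21.8%. Pool D held 4 of 4 low-CpG neuron markers, 5 of 6 astrocyte and oligodendrocyte markers, 5 of 8 vascular markers, 3 of 16 other microglia genes (Olfml3, Cd68 and Cd53) and 0 of 9 of the microglia genes described here. Pool C held 4 of 4, 6 of 6, 8 of 8, 8 of 16 and 8 of 9. Border macrophage and monocyte markers stood at 1 of 13 in both pools, lymphocyte and neutrophil markers at 0 of 13 in pool D and 1 of 13 in pool C, and microglial transcription factors and TGF-beta genes at 2 of 3 and 3 of 3. The median signal value of the marked genes in pool C was 20.97 for neurons, 6.61 for astrocytes and oligodendrocytes, 6.35 for vascular cells, 3.42 for the other microglia genes and 4.15 for the microglia genes described here. The number of cells of each type per pool is not in the files used here, and its part in these counts was not tested.

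**Figure D5:**
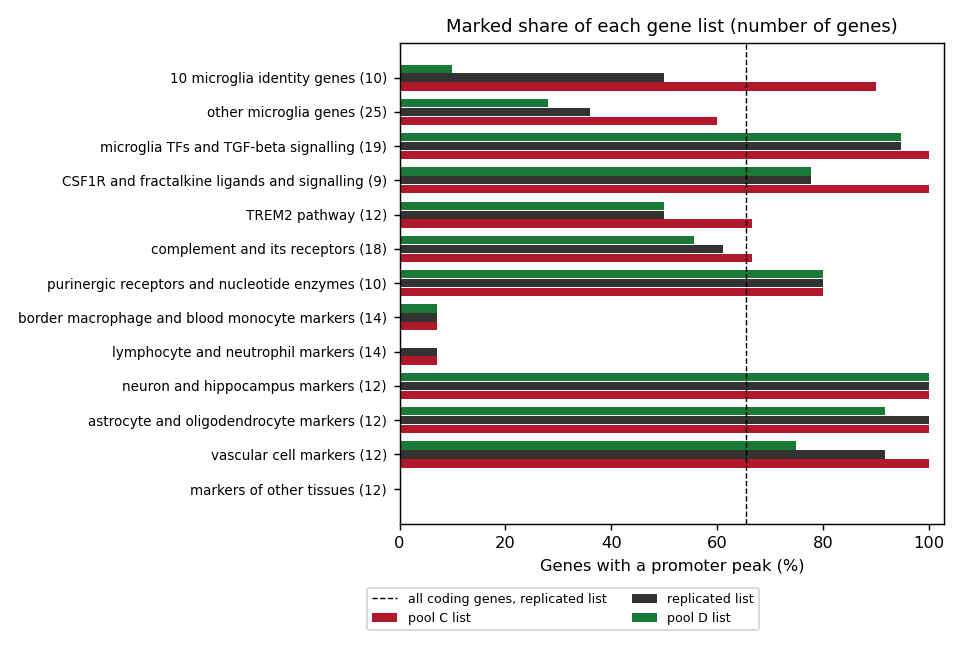
Share of each gene list with a promoter peak (percent) in the pool D, replicated and pool C lists, with the number of genes in brackets and a dashed line at 65.5%, the share of all protein-coding genes in the replicated list. The 10 microglia genes have the widest gap between pool D (1 of 10) and pool C (9 of 10).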

How the data were processed

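H3K4me3 ChIP-seq peak lists on mm10 were used as deposited, 1 per pool, 1 on both pools together and 1 of replicated peaks, which was the main list. Which caller was run, and how, was not given in the sources used here. All peaks have a signal value deposited by the authors, a −log10 q value deposited by the authors, a display score that the authors deposited and that was not used for results, and a summit position. Weak peaks are included, down to a −log10 q of 0.26 in the replicated list.

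From these, promoter calls (at least 1 bp within 1000 bp of any M21 start site), domains (gaps up to 1000 bp closed), summit distances and CpG ratios (GRCm38, low under 0.35, high from 0.6) were computed with Python 3.11.15 and numpy 2.4.6, and the overlap code was tested on simulated data. All peaks lay within the 21 chromosomes. The CpG ratio is that of the gene's 5′ end, and some genes were marked at another start site. A peak of a neighbouring gene can mark a gene.

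There were no tests, since each pool gave 1 list. The 10 genes and 12 other gene lists (170 symbols, of which Lrrc33 was not found) were chosen with earlier results of these data known. Named were, per list, the 3 broadest in the replicated list, the first 3 by symbol marked in pool C and not in pool D, the first 2 unmarked, and up to 3 microglia genes per call pattern. Not all of these are described, and 1 gene that the rule takes is not reported here. Alternatives were other thresholds, windows, gaps, start sites and lists.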

Additional observations from a re-analysis of the deposited data

How the results depend on the processing

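Of the 10 genes, 5 were marked in the replicated list. With −log10 q set to at least 5 the count was 2 (P2ry12 and Sall1; 64.4% of all protein-coding genes), with the pool C list alone 9 (66.9% of all) and with the pool D list alone 1 (64.3%). It stayed within 1.5 times under the other 7 alternatives run. Marked in pool C and not in pool D were 8, against 2.68% of all protein-coding genes. The count was 5 either at a −log10 q of at least 5 or with the gene's 5′ end as the only start site. The share of all genes with this pattern is not given for these alternatives. At a −log10 q of at least 5, pool C marked 66% of all protein-coding genes and pool D 63.1%. The median breadth of 695 bp became 382 bp with no gap closed, 3654 bp at a −log10 q of at least 5 and 6110 bp in pool D, where Sall1 alone remains. The count of other microglia genes, 9, became 15 in pool C (66.9% of all) and 5 at a −log10 q of at least 5 (64.4% of all). With a window of 2.5 kb, pool C marked C1qb too, with 68.1% of all protein-coding genes. Of 23 recomputed breadths of single genes 7 moved by over 1.5 times, and of 33 counts of other lists 2 did. No paired analysis was possible because each pool gave 1 list and no test was run. Depth is unknown, and its part in these calls was not tested.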
